A study of Mus musculus with 6 samples.

Results

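The comparison set 2 libraries against 2. WT_2 and KO_2 carry the replicate number 2 in their labels, WT_1 and KO_1 the replicate number 1, and these 4 of the 6 libraries of the series were the ones made at passage 20. They were chosen by label alone, and the question was how far subcloned cultures of equal passage differed in state, with the group (wild-type or Ephb2-KO) held as a covariate. All of them were spermatogonial stem cells, from which sperm production is renewed, derived from adult mice and cultured in StemPro-34 medium with growth factors. Every line had been electroporated with a plasmid carrying a green fluorescent protein reporter, the wild-type lines without a guide RNA and the Ephb2-KO lines with a guide RNA against Ephb2, and had then been sorted for fluorescence and subcloned. Each library is therefore 1 line. The labels do not say what libraries of the same number share, so whether they are independent cannot be told. The p-values below measure only the spread between these libraries, and n counts libraries. The remaining 2 libraries, WT_3 and KO_3, were at passage 18 and serve as a description of where other lines lay.

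Spermatogonial stem cells are kept in culture by GDNF and FGF. GDNF binds GFRA1 and signals through RET, and FGF signals through its own receptors, and both lead to ERK and to transcription factors such as ETV5 that hold the stem cell state, while SPRY, SPRED and DUSP proteins restrain the same pathway. Differentiation is started by retinoic acid, which turns on Stra8, and is followed by meiosis, when synaptonemal complex proteins such as SYCP1 and SYCP3 pair the chromosomes. Many germline genes are silenced by promoter methylation in somatic cells, and piRNA proteins such as MOV10L1 and GTSF1 repress transposons in the male germline.

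Totals ran from 23199572 to 34047758 counts over the 4 libraries, and both replicate 1 libraries were deeper than both replicate 2 libraries. A floor of 3 counts corresponded to between 0.0799 and 0.135 CPM (counts scaled to library size, with TMM factors) in these 4 libraries, covering counting error only. Ephb2, the targeted receptor gene, was at 21.1 CPM in WT_1, 27.0 in WT_2, 36.9 in KO_1 and 16.4 in KO_2, so its mRNA level did not separate the groups. Germ cell markers (Ddx4, Dazl, Zbtb16, Gfra1, Sall4 and Uchl1) summed to between 2271 and 2610 CPM in the 4 libraries. The 10 fibroblast or stromal markers summed to 2988 CPM in WT_1, 4142 in WT_2, 4732 in KO_1 and 5250.1 in KO_2. Their sum was thus higher in replicate 2 within each group, while across groups replicates 1 and 2 overlapped. It was 16997 in WT_3 and 20041 in KO_3. Of the Leydig markers, Cyp17a1, Hsd3b1 and Insl3 were at or under the floor in all 6 libraries, as was the macrophage marker Emr1. Mitochondrially encoded counts made up 0.849% of WT_1, 1.396% of WT_2, 1.52% of KO_1 and 1.93% of KO_2. The 5.8S ribosomal RNA feature n-R5-8s1 was at 94.1 and 121 CPM in WT_1 and KO_1, and at 215 and 819 in WT_2 and KO_2, so KO_2 was the highest library for it. The part of depth, ribosomal RNA and stromal content in the differences below was not tested. In bulk RNA, fewer cells of a type and less RNA per cell cannot be told apart.

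One library stood apart by single genes. KO_1 had 20 genes at least 10 times lower than in every one of the other 5 libraries, each of those being at 1 CPM or more, and the other 5 libraries had 0 such genes each. Tex19.1, a germline gene that guards against transposons, had 12 counts in KO_1 (chr11:121146143-121148319), against 9360 in WT_1, 7258 in WT_2, 7889 in KO_2, 5050 in WT_3 and 4167 in KO_3. Pnldc1, the exonuclease that trims piRNA precursors, had 4 counts in KO_1, against 1156 in WT_1, 219 in WT_2 and 85 in KO_2. The X-linked homeobox genes Rhox2a, Rhox6 and Rhox9 had 0 counts in KO_1 and between 46 and 206 counts in WT_1, WT_2 and KO_2. On the X chromosome lay 6 of the 20 genes (Rhox2a, Rhox6, Rhox9, Xlr3c, Xlr4b and AV320801), against 580 of all 15728 tested genes. Taf1c, Apobec3, Hoxb5 and Ddx60 were autosomal examples. In the other direction, 3 genes were at 10 times the highest other library or more in KO_1, with 9084 counts for Nxf2 against at most 487 elsewhere, 897 for Afp against at most 31 and 727 for Nkx2-5 against at most 48. WT_1 had 2 such high genes, Slc9b1 and Zglp1, and the remaining 4 libraries had 0. These genes were picked by that rule after their values were seen and carry no test. Fits without KO_1 or without WT_1 leave replicate 1 with 1 library, and those without KO_2 or WT_2 leave replicate 2 with 1. Such fits cannot show how far the calls below rest on a library, so for single genes only their log2 fold changes are given.

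Between replicate 2 and replicate 1, 1454 of the 15728 tested genes passed an adjusted p of 0.05 in edgeR's quasi-likelihood test with Benjamini-Hochberg adjustment, or 9.24% of genes. Of these, 752 were higher in replicate 2 (4.78% of tested genes) and 702 lower (4.46%), and 454 and 503 of them were past a log2 fold change of 1. The lists' counts of called genes below are read against the shares of 4.78% and 4.46%. An unadjusted p under 0.05 was reached by 3984 tested genes (25.3%), and the lists' counts at that threshold are read against that share. With library totals in place of TMM scaling, the split became 515 higher and 1363 lower, and the median of all tested genes moved from -0.01 to -0.18, so changes are given relative to the typical gene. Of the called genes, 1453 went the same way in the wild-type pair and in the Ephb2-KO pair (A230065H16Rik, with 0 counts in KO_1 and KO_2, was the exception). In both pairs, 711 differed by more than 1 on the log2 scale. The calls came from a fit to these same libraries, in which agreement of the pairs lowers p. This agreement was therefore near fixed in advance and is no support for the calls. Across all tested genes, WT_2 minus WT_1 correlated with KO_2 minus KO_1 at a Pearson r of 0.550, a description across genes that share their libraries' depth and composition. The directions matched for 68.3% of tested genes. Another 83 genes differed by more than 1 in opposite directions in the pairs, and 0 of those were called, which the fit also favours. Of all called genes, 67 of the lower ones passed the filter on low counts only through the replicate 1 libraries and 35 of the higher ones only through the replicate 2 libraries, and these had to differ.

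**Figure D1:**
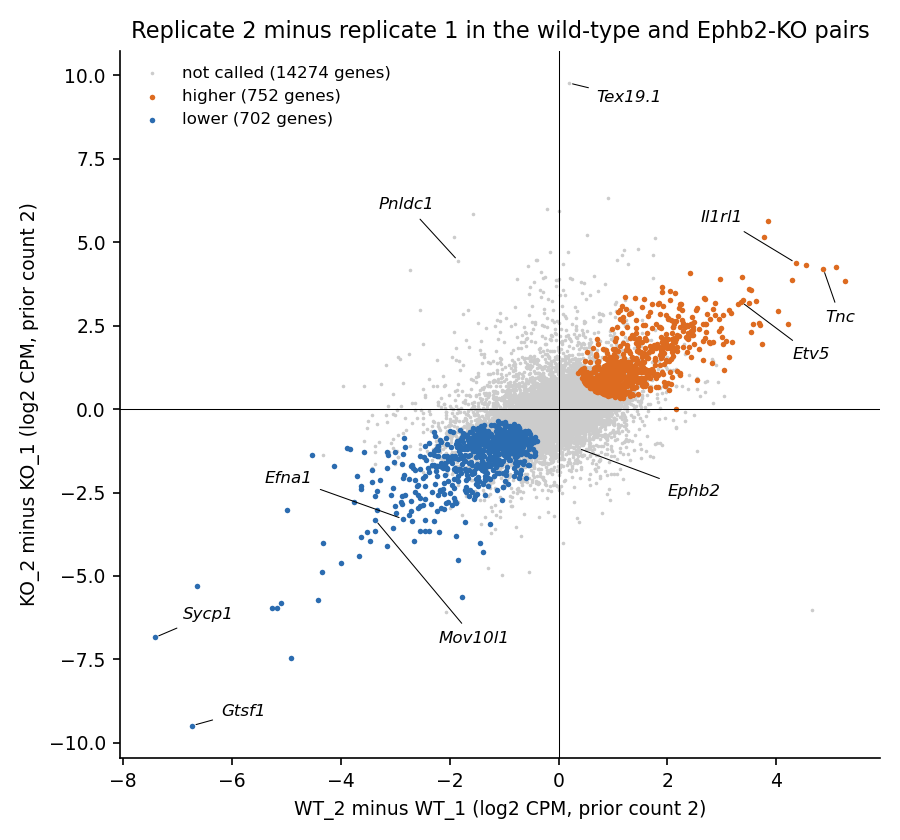
Log2 CPM difference between replicate 2 and replicate 1 for each of the 15728 tested genes, in the wild-type pair (x axis) and in the Ephb2-KO pair (y axis). Orange and blue points are the 752 higher and 702 lower genes. They were called by a fit to these same libraries that favours agreement of the pairs, so they lie along the diagonal by selection. Tnc, Il1rl1 and Etv5 are at one end and Sycp1 and Gtsf1 at the other. Tex19.1 and Pnldc1 lie off the diagonal.

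Among the largest differences were those of germline transcripts that were near absent from replicate 2. Sycp1, which encodes the transverse filament of the synaptonemal complex, had 668 and 1186 counts in WT_1 and KO_1 and 1 and 5 in WT_2 and KO_2. Gtsf1, a piRNA factor, had 571 and 1689 counts in WT_1 and KO_1 and 2 and 0 in WT_2 and KO_2. Hormad1, a meiotic chromosome axis protein, had 243 and 91 counts in WT_1 and KO_1 and 0 in both replicate 2 libraries. Both passage 18 libraries were also at 1 count or less for each of these genes, so replicate 1 held them alone. Naa11, a testis-enriched acetyltransferase gene, had 72 and 413 counts in WT_1 and KO_1 and 0 in the other 4 libraries. Over the pooled pairs, Hormad1 was at least 72.9-fold lower and Naa11 at least 106-fold lower in replicate 2, taking 3 counts over the group as the floor. Sycp1 was 202-fold lower (95% exact binomial interval 92.8 to 552.3, counting error only), and Gtsf1 was 740-fold lower (204.7 to 6117). These 4 genes passed the filter on low counts only through replicate 1 and so had to differ, and no p is given in support. DESeq2 did not call Hormad1 (adjusted p = 0.18) or Naa11 (0.16). In all, 18 genes had at least 1 CPM in both replicate 1 libraries and at most 10 counts in the 2 replicate 2 libraries together, and 8 of those 18 also had at most 10 in WT_3 and KO_3 together. Beside the germline genes, Zfp455 was 105.5-fold lower (interval 18.7 to 4192), Arhgap4 56.8-fold (27.4 to 141.9), Gm14222 at least 51.5-fold and Zfp92 at least 46.5-fold. These too passed the filter only through replicate 1. In the reverse direction the same rule gave 3 genes, Sh2d1b2, Ccr1 and Esrrg. Sycp3, the lateral element of the synaptonemal complex, was at 13.6 and 26.4 CPM in WT_1 and KO_1 and at 0.312 and 0.359 in WT_2 and KO_2, and WT_3 and KO_3 (0.250 and 0.297 CPM) lay with replicate 2.

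The promoters of 5 germline genes that fell to near 0 are shown, 3 of them (Sycp1, Sycp3 and Hormad1) chosen after the search because their windows hold both motifs below, and Gtsf1 and Naa11 because they differed more than Sycp3 and do not hold both. Each line gives the 250 bases before the annotated start on the gene's strand, from RefSeq on GRCm38.p6. Capitals mark 2 short motifs found on either strand, the E2F-type site TCCCGC and the E-box CACGTG, which were searched after the values were seen. They lie at chr3:102936101-102936350 (minus strand, Sycp1), chr10:88459337-88459586 (plus strand, Sycp3), chr3:95559427-95559676 (plus strand, Hormad1), chr15:103430428-103430677 (minus strand, Gtsf1) and chr5:97392331-97392580 (minus strand, Naa11).
Sycp1: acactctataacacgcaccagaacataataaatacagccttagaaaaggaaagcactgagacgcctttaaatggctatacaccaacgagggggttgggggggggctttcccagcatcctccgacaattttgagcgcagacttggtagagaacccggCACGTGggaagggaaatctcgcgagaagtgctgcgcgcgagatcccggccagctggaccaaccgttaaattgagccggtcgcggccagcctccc
Sycp3: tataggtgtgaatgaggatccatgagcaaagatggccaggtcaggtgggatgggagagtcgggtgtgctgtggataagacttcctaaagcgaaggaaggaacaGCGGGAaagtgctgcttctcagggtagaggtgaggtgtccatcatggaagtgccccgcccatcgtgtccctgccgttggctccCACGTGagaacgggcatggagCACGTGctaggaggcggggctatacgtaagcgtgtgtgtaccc
Hormad1: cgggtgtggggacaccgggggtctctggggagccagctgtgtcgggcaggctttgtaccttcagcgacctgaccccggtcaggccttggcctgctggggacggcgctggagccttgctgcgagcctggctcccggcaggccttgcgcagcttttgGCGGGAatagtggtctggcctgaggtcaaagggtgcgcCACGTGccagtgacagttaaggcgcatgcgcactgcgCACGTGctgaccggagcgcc
Gtsf1: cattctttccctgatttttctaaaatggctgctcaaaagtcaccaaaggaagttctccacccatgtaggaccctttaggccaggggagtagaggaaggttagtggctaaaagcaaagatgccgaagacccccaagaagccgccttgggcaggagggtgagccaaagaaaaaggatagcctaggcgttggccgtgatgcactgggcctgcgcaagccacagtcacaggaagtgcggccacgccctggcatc
Naa11: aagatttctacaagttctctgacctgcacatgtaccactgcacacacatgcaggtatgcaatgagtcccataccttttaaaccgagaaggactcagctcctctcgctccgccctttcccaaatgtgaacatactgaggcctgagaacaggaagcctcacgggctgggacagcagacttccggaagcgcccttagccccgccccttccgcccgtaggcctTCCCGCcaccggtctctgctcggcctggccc
Of the 18 near-silent genes and Sycp3, 14 were in the promoter table, which spans 250 bases before to 50 after each start. Sycp3, with 8 counts in WT_2 and 8 in KO_2, did not meet the near-silent rule and was added to the set. It holds both motifs, so its addition raised each of the set's shares below. The E-box was in 4 of the 14 windows (28.6%), against 10.02% of the promoters of 11178 tested genes. TCCCGC was in 5 of 14 (35.7%), against 35.8% of tested genes. Both motifs were in 3 of 14 windows (21.4%), those of Sycp1, Sycp3 and Hormad1, against 3.95% of tested genes, and the Sycp1 match to TCCCGC lay in the 50 bases after the start. A match is a description of letters and not of binding, and with 14 promoters these shares carry no test.

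Other meiotic and piRNA genes were lower by less. Mov10l1, a helicase of piRNA biogenesis, was at 85.0 and 112 CPM in WT_1 and KO_1 and at 8.19 and 11.1 in WT_2 and KO_2, with WT_3 and KO_3 between at 28.5 and 29.3. Its log2 fold change was -3.35 ± 0.20 (SE; n = 2 libraries a replicate number; edgeR adjusted p = 1.01e-06). The cohesin subunit gene Stag3 was at 128 and 152 CPM in replicate 1 and at 69.4 and 65.7 in replicate 2 (WT and KO in each case). Ddx4, the germ cell RNA helicase VASA, was at 190 and 289 CPM in replicate 1 and at 117 and 95.4 in replicate 2. For Stag3 and Ddx4, replicates 1 and 2 did not overlap, as in 9428 of all tested genes (59.9%). Their log2 fold changes were -1.05 ± 0.18 for Stag3 (edgeR adjusted p = 0.00441) and -1.15 ± 0.23 for Ddx4 (0.0106). The call on Ddx4 was lost in 5-library fits without WT_2 (edgeR adjusted p = 0.24) or KO_2 (0.28). Of 26 meiotic prophase genes tested among 35 listed, 7 fell and 0 rose, with a median log2 fold change of -0.45 against -0.01 for all genes, and 2 of the 7 passed the filter only through replicate 1. DESeq2 called 5 lower and limma-voom 7, both with 0 higher, and at an unadjusted p of 0.05 there were 9 lower and 0 higher (against 25.3% of all tested genes in either direction). Beside those named, Smc1b fell by 0.96, Sycp2 by 1.04 and Syce1 by 0.68 on the log2 scale. On that scale Sycp2 was at -0.73 without WT_2, and Smc1b at -0.83 without KO_2 and -0.57 without KO_1. Of 24 germ cell identity and piRNA genes tested, 4 fell, 1 of which (Gtsf1) passed the filter only through replicate 1, and 0 rose (median -0.18), Pld6 with -0.99 ± 0.23 the least changed. Dazl, a germ cell RNA-binding protein, was at 1105 and 1346 CPM in replicate 1 and 1375 and 1282 in replicate 2, so those libraries overlapped. Of 8 Y chromosome genes tested, Zfy1 fell, from 1.70 and 2.50 CPM to 0.429 and 0.0448.

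**Figure D2:**
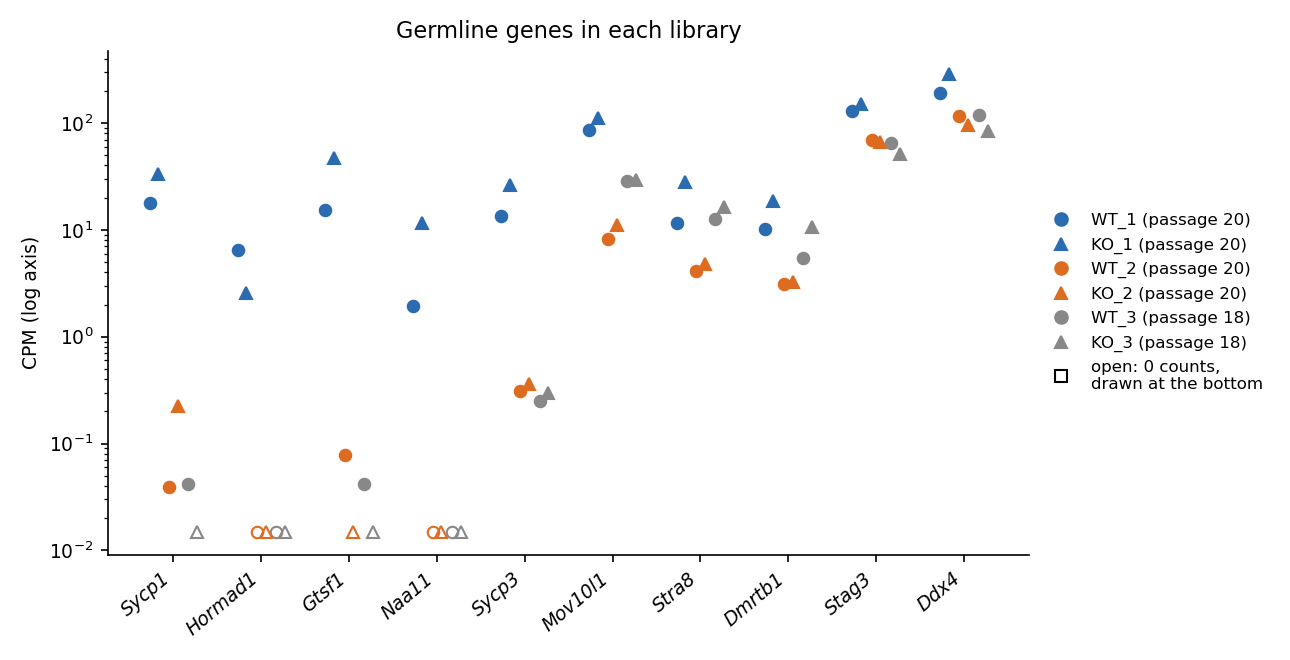
CPM on a log axis for 10 germline genes in each of the 6 libraries. Circles are wild-type and triangles Ephb2-KO lines, blue is replicate 1, orange replicate 2 and grey replicate 3 at passage 18. For Sycp1, Hormad1, Gtsf1, Naa11 and Sycp3 the replicate 2 and 3 libraries lie together far below replicate 1, while for Mov10l1, Stra8 and Dmrtb1 replicate 3 lies above replicate 2.

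Genes that ERK turns on were higher in replicate 2 as a group. Of 26 ERK pathway target genes, all of which were tested, 17 rose and 1 fell, against 4.78% and 4.46% of all tested genes. Their median log2 fold change was 1.21, against -0.01 for all genes. Etv5 (chr16) was at 24.5 and 23.2 CPM in WT_1 and KO_1 and at 251 and 217 in WT_2 and KO_2. WT_3 and KO_3, at 31.5 and 32.1, lay with replicate 1, so replicate 2 was the high pair. The fold change of Etv5 was 3.29 ± 0.19 on the log2 scale (SE, n = 2 against 2; edgeR adjusted p = 1.01e-06). Its relative Etv4 rose by 2.35 ± 0.21. Feedback inhibitor genes were called as well: Spry4 rose by 2.50 ± 0.19, Spry1 by 1.85 ± 0.19, Spred3 by 2.40 ± 0.34, Spred2 by 1.96 ± 0.19 and Spred1 by 1.59 ± 0.19. Spry2 rose by 1.02 ± 0.19 but did not share the order of Etv5, at 58.4 and 58.6 CPM in replicate 2 and 65.4 and 76.0 in WT_3 and KO_3. The MAP kinase phosphatase genes rose too, with 2.43 ± 0.27 for Dusp4, 2.03 ± 0.20 for Dusp5 and 1.72 ± 0.19 for Dusp6. Dusp6 was at 85.3 and 81.8 CPM in replicate 1, at 279 and 272 in replicate 2 and at 105 and 93.9 in replicate 3. Fosl1, an AP-1 subunit gene, was at 13.5 and 14.5 CPM in replicate 1 and at 53 and 54.8 in replicate 2. Immediate early genes gave mixed values. Egr3 rose by 0.99 ± 0.21 and Ier3 by 1.33 ± 0.22. Ier2 fell, from 299 and 283 CPM to 87.1 and 102, with 733 and 708 in WT_3 and KO_3. Fos was at 605 and 703 CPM in replicate 1 and 481 and 535 in replicate 2, and Egr1 at 1049.6 and 1539.7 against 1387 and 1307, and neither was called. The ETS core CCGGAA, on either strand, was in 1 of the 16 ERK target promoters in the RefSeq table (6.25%), against 26.6% of the promoters of tested genes.

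Ligand and receptor genes at the top of this pathway gave mixed values. Gdnf itself was at 0.453 and 0.674 CPM in WT_1 and KO_1 and at 3.63 and 5.87 in WT_2 and KO_2, a log2 fold change of 3.06 ± 0.45 (edgeR adjusted p = 0.00138). Gfra1, its coreceptor gene, was at 146 and 148 CPM in replicate 1 and at 245 and 231 in replicate 2, and rose by 0.69 ± 0.19 on the log2 scale. With library totals only, Gfra1 did not pass (edgeR adjusted p = 0.077). Ret, the signalling receptor gene, was at 135 and 163 CPM against 209 and 181 and was not called (edgeR adjusted p = 0.232). Of the epidermal growth factor family, for which there was no list, the ligand gene Ereg rose from 4.31 and 4.86 CPM to 49.6 and 59.8, Areg from 1.23 and 0.786 to 5.11 and 5.61 and Hbegf from 9.32 and 11.2 to 36.0 and 35.9. Areg and Hbegf were picked after their values were seen, and the related ligand genes Egf (1.46 and 0.421 CPM against 0.273 and 0.135) and Tgfa (0.772 and 1.21 against 0.702 and 0.493) were lower in replicate 2 in both pairs and not called. Of 15 GDNF-responsive genes tested, 8 rose and 1 fell (median 0.99), and 8 of those 9 (Ccnd2 being the other) are also in the list of stem genes below. Nefm rose by 2.35 ± 0.27 and the tetraspanin gene Tspan8 by 2.27 ± 0.32, while Mycn fell by 0.81 on the log2 scale. Without KO_2 the log2 fold change of Mycn was -0.52.

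The markers of the stem cell state itself did not move as one. Of 27 stem spermatogonia genes tested, 10 rose and 1 fell (median 0.32), and 5 of the 10 (Etv5, Etv4, Spry4, Dusp6 and Egr3) are also listed as ERK targets. Cxcr4, a chemokine receptor gene, was at 10.4 and 6.12 CPM in replicate 1 and at 20.7 and 17.8 in replicate 2. Id4 was at 19.9 and 21.7 CPM against 28.4 and 23.8, Nanos2 at 33.0 and 26.6 against 33.4 and 29.0, and Zbtb16 at 224 and 225 against 211 and 152. These 3 genes, which mark undifferentiated spermatogonia, were not called, and neither was Bcl6b (26.0 and 44.9 CPM against 49.7 and 45.5). Of 23 progenitor genes, 4 rose and 3 fell, against 4.78% and 4.46% of all tested genes. The higher ones were Itga6, Ccnd2, Epcam and Itgb1 and the lower ones Rarg, Nanos3 and Sohlh2. The log2 fold change of Itga6 was 1.41, and it was 1.46 without WT_2 and 1.29 without KO_2. Ccnd2, the D-type cyclin of undifferentiated spermatogonia, was at 258 and 219 CPM in replicate 1 and at 591 and 526 in replicate 2. Of 19 pluripotency genes, 0 were called by edgeR in either direction, with a median of 0.12 that turned to -0.05 under library totals. At an unadjusted p of 0.05, 3 of the 19 were higher and 2 lower (25.3% of all tested genes passed), and DESeq2 and limma-voom called 0 too.

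On the side of retinoic acid and differentiation, genes were called in both directions. Stra8, the gatekeeper of meiosis, was at 11.7 and 28.0 CPM in WT_1 and KO_1 and at 4.10 and 4.75 in WT_2 and KO_2, with WT_3 and KO_3 at 12.6 and 16.2. Rarg, the retinoic acid receptor gene of spermatogonia, was at 59.0 and 85.8 CPM against 30.0 and 33.9. Their log2 fold changes were -2.04 ± 0.32 for Stra8 (edgeR adjusted p = 0.00264) and -1.16 ± 0.19 for Rarg (0.00323). Dmrtb1, which controls entry into meiosis, fell from 10.2 and 18.5 CPM to 3.08 and 3.27. Kit, the receptor gene of differentiating spermatogonia, was at 50.2 and 82.3 CPM in replicate 1 and 93.5 and 68.5 in replicate 2, higher in the wild-type pair and lower in the Ephb2-KO pair. Of 18 differentiating spermatogonia genes tested, 2 rose (Ccnd1 and Kitl) and 3 fell (Dmrtb1, Stra8 and Stk31), against 4.78% and 4.46% of all tested genes. Their median of 0.04 turned to -0.13 under library totals. Of 22 retinoic acid genes, 2 rose and 4 fell (median -0.13). Aldh1a3, which makes retinoic acid, rose from 0.373 and 0.533 CPM to 2.93 and 2.33, and Crabp2, which carries it, fell from 1.46 and 3.62 to 0.195 and 0.987. Without WT_2, the log2 fold changes were 2.11 for Aldh1a3 (2.53 in the main fit) and -1.60 for Crabp2 (-2.27). That of Stk31 was -1.59 in the main fit, -1.98 without WT_2 and -1.27 without KO_2.

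Among the called genes with the largest increases in replicate 2 were those of a matrix glycoprotein, a cytokine receptor and an integrin subunit. Tnc (chr4:63959785-64047015, minus strand, in GRCm38.p3), which encodes the matrix glycoprotein tenascin C, was at 4.45 and 7.72 CPM in WT_1 and KO_1 and at 131 and 144 in WT_2 and KO_2. WT_3 and KO_3 were at 19.8 and 23.4, above replicate 1 and far below replicate 2. Its log2 fold change was 4.54 ± 0.23 (edgeR adjusted p = 6.98e-07). The interleukin 33 receptor gene Il1rl1 was at 2.66 and 2.98 CPM in replicate 1, at 55.8 and 63.4 in replicate 2 and at 19.8 and 18.6 in replicate 3. Itga5, the fibronectin receptor subunit gene, was at 22.2 and 35.1 CPM in replicate 1 and at 251 and 316 in replicate 2, and rose by 3.33 ± 0.20. Beside them, Cd44, the hyaluronan receptor gene, rose by 3.05 ± 0.20, Has1, which makes hyaluronan, by 3.05 ± 0.36, the urokinase receptor gene Plaur by 3.08 ± 0.35 and the protease inhibitor gene Serpinb2 by 4.67 ± 0.47. Ptgs2, the inducible cyclooxygenase gene, was at 25.0 and 33.6 CPM against 158 and 199. Npas4, an activity-induced transcription factor gene, was at 0.400 and 0.562 CPM against 15.9 and 11.8, and had 0 counts in both passage 18 libraries. Nlrp3, the inflammasome sensor gene, was at 1.25 and 0.814 CPM against 13.5 and 13.6. Angptl4 rose by 3.04 ± 0.20 and the chromatin gene Hmga2 by 2.40 ± 0.21.

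As lists, 20 of 51 extracellular matrix genes rose and 2 fell (median 0.52), and 11 of 28 integrin and focal adhesion genes rose and 1 fell (median 0.56), against 4.78% and 4.46% of all tested genes. Thbs1 rose by 2.32 ± 0.22, Timp1 by 1.60 ± 0.19, Spp1 by 1.60 ± 0.22, Fn1 by 1.17 ± 0.24 and Nid1 by 1.30 ± 0.23, and among adhesion genes Zyx rose by 1.37 ± 0.19 and Itgav by 1.31 ± 0.19. The 2 matrix genes that fell were the fibroblast products Postn (120 and 174 CPM against 68.1 and 97.9) and Lum (11.9 and 10.4 against 3.47 and 6.23). Postn did not pass with GC offsets (edgeR adjusted p = 0.056) or with no group covariate (0.073). Col3a1 was at 969 and 1465 CPM against 1095 and 1291, and Col1a1 at 479 and 978 against 861 and 1123, and neither was called. Of 21 fibroblast or stromal markers tested, 4 rose (Vim, Prrx1, Twist1 and S100a4) and 2 fell (Postn and Lum), with a median of 0.07 that turned to -0.10 under library totals. The passage 18 libraries, with the highest stromal marker sums, held less Tnc, Itga5, Cd44 and Il1rl1 than replicate 2 but more Fn1 (2035 and 3137 CPM against 1452 and 1669), Spp1 (613 and 676 against 312 and 427), Timp1 (101 and 113 against 69.7 and 82.9), Vim (1033 and 1344 against 620 and 804) and Prrx1 (166 and 158 against 37.6 and 55.8). Among the remaining marker lists, 2 of 12 Sertoli genes rose (Inhbb and Sox9), 2 of 10 myoid genes (Acta2 and Smtn), 2 of 10 endothelial genes with 1 lower (Eng and Tek, and Erg), and 2 of 5 macrophage genes (Mrc1 and Cd68). Summed endothelial markers were 7.27 and 6.23 CPM in replicate 1 and 14.0 and 15.2 in replicate 2, and summed macrophage markers 7.40 and 6.79 against 20.7 and 16.1, where Cd68 made up most and Ptprc and Tyrobp stayed at 0.195 CPM or less. The part of these cell types in the result was not tested.

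**Figure D3:**
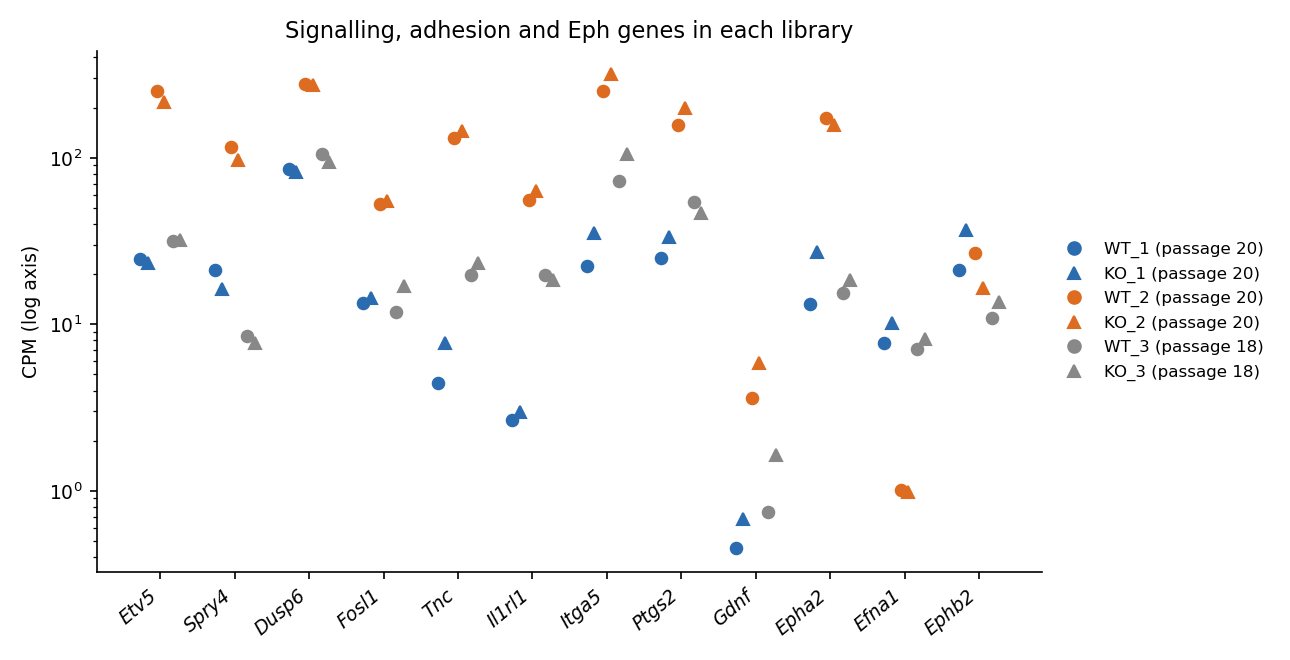
CPM on a log axis for 12 signalling, adhesion and Eph genes in the 6 libraries (circles wild-type, triangles Ephb2-KO; blue replicate 1, orange replicate 2, grey replicate 3). For the first 10 genes, Etv5 to Epha2, both replicate 2 libraries lie above all others, for Efna1 they lie below all others, and for Ephb2 the replicates 1 and 2 overlap.

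Within the Eph family, to which the targeted gene belongs, genes were called in both directions. Epha2, a receptor gene, was at 13.3 and 27.2 CPM in WT_1 and KO_1 and at 174 and 158 in WT_2 and KO_2, with 15.5 and 18.5 in WT_3 and KO_3. Efna1, the gene of a ligand that binds EPHA2, was at 7.75 and 10.2 CPM in replicate 1, at 1.01 and 0.987 in replicate 2 and at 7.12 and 8.12 in replicate 3. Replicate 2 was thus the high pair for the receptor and the low pair for the ligand, with log2 fold changes of 3.12 ± 0.29 (edgeR adjusted p = 0.000879) and -3.15 ± 0.38 (0.000287). The B-type ephrin genes Efnb2 and Efnb1, whose proteins bind EPHB2, rose by 1.84 ± 0.23 and 1.42 ± 0.29. Ephb2 was not called (edgeR adjusted p = 0.54): it was higher in WT_2 than in WT_1 and lower in KO_2 than in KO_1. Of 19 Eph and ephrin genes tested, 3 rose and 1 fell, with a median of -0.12 that turned to 0.13 without KO_1 and to 0.20 without KO_2.

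Proliferation genes showed small differences. Of 38 mitosis genes, 4 rose and 0 fell, and 33 had a fold change above 0 (median 0.30). Ccna2, the cyclin of S and G2 phases, was at 70.9 and 85.2 CPM in replicate 1 and at 151 and 139 in replicate 2, and rose by 0.89 ± 0.19. Mki67 was at 31.3 and 28.7 CPM against 57.9 and 42.7, and Foxm1 at 23.9 and 30.5 against 48.3 and 44.8. Under library totals neither passed, with edgeR adjusted p of 0.083 for Mki67 and 0.071 for Foxm1. With all 6 libraries, Mki67 had an edgeR adjusted p of 0.12. Without WT_2 the log2 fold changes were 0.30 for Mki67 (0.73 in the main fit) and 0.50 for Foxm1 (0.78). That of Mki67 was 1.12 without KO_2. Of 46 DNA replication genes, 0 were called by edgeR in either direction, with a median of 0.02 that turned to -0.15 under library totals. At an unadjusted p of 0.05, 2 of the 46 were higher and 5 lower (against 25.3% of all tested genes in either direction), with 0 called by DESeq2 or limma-voom. Ccnd1 rose by 1.09 ± 0.19. Cdkn1b, which encodes the inhibitor p27, was at 136 CPM in WT_1, 54.6 in WT_2, 40.2 in KO_1 and 54.1 in KO_2, so it was WT_1 that was high.

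Replication-dependent histone genes, whose mRNAs normally lack a poly(A) tail and are poorly captured by poly(A) selection, were lower in replicate 2. Of 24 tested among 70 listed, 12 fell and 0 rose, with a median of -1.51, and 4 of the 12 passed the filter only through replicate 1. Together histone counts made up 0.0289% of WT_1 and 0.0242% of KO_1, and 0.0116% of WT_2 and 0.0122% of KO_2. The linker histone gene Hist1h1c was at 144 and 138 CPM against 73.7 and 81.0, with 302 and 260 in WT_3 and KO_3. DESeq2 called 8 of the 24 lower and limma-voom 13, and at an unadjusted p of 0.05 there were 15 lower and 0 higher (against 25.3% of all tested genes in either direction). Hist3h2ba fell by 1.75 on the log2 scale. Leaving histone and mitochondrial genes out of the fit gave 1415 called genes.

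Metabolic and stress genes added smaller groups, to be read against the 4.78% of all tested genes that rose and the 4.46% that fell. Txnip, which restrains glucose uptake, was at 723 and 946 CPM in WT_1 and KO_1 and at 186 and 195 in WT_2 and KO_2, and fell by 2.12 on the log2 scale (SE 0.22; edgeR adjusted p = 9.09e-05). Of 39 glycolysis and hypoxia genes, 5 rose and 1 fell (median 0.20), and Hk2, a hexokinase gene, was at 15 and 32.7 CPM against 106 and 85.6. Of 35 cholesterol and fatty acid synthesis genes, 8 rose and 1 fell (median 0.44). Fasn, the fatty acid synthase gene, was at 155 and 328 CPM against 602 and 529, and did not pass with no group covariate (edgeR adjusted p = 0.064). Of 32 antioxidant and glutathione genes, 5 rose and 0 fell (median 0.31). Srxn1 rose by 1.48 ± 0.18, Gpx2 by 1.57 ± 0.23, the cystine transporter gene Slc7a11 by 2.46 ± 0.39 and Hmox1 by 0.97 ± 0.19. Of 48 interferon response genes, 7 rose and 3 fell, with a median of 0.38 that turned to -0.05 without KO_1. Gbp2 was at 32.5 and 19.6 CPM against 107 and 105, with a log2 fold change of 2.07 (2.02 without WT_2 and 2.04 without KO_2). The transcription factor genes Irf1 (126 and 88.2 against 45.4 and 41.1) and Stat2 (28.2 and 24.6 against 9.09 and 9.37) fell instead. Of 58 nuclear oxidative phosphorylation genes, 0 were called by edgeR, with a median of -0.01 in the wild-type pair and 0.45 in the Ephb2-KO pair. At an unadjusted p of 0.05, 12 of the 58 were higher and 0 lower (against 25.3% of all tested genes), and neither DESeq2 nor limma-voom called any. Of 80 ribosomal protein genes, 1 rose (Rpl39), with a median of 0.07 in the wild-type pair and 0.61 in the Ephb2-KO pair.

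**Figure D4:**
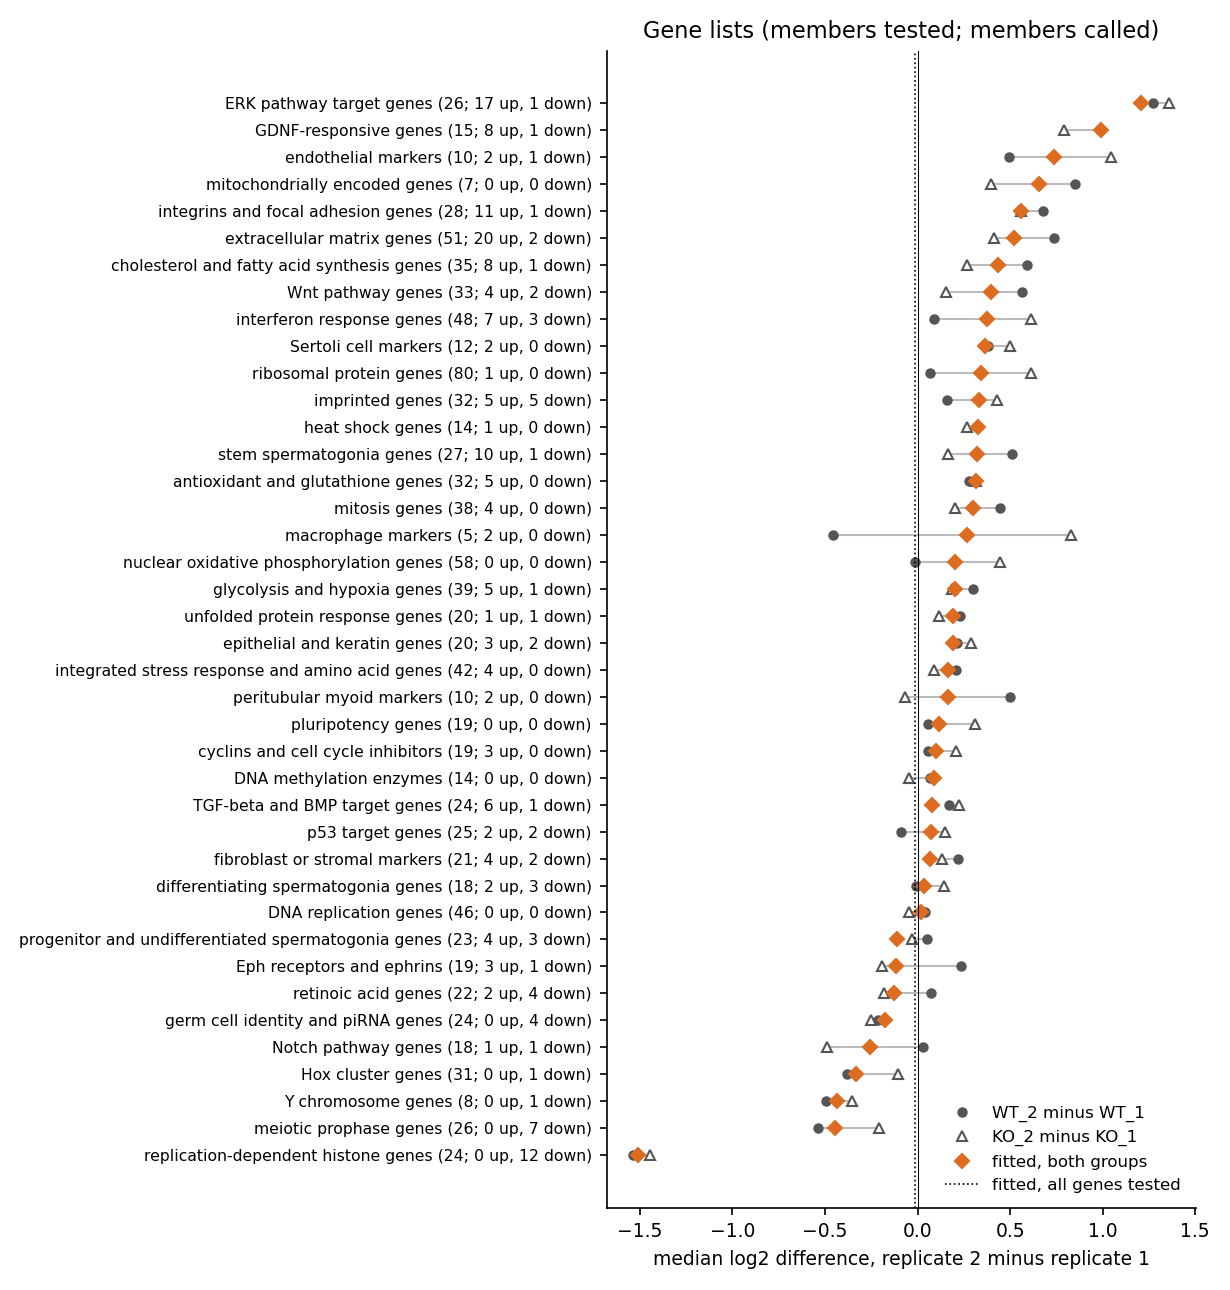
Median log2 difference of replicate 2 minus replicate 1 for the 40 gene lists with at least 5 tested members, in the wild-type pair (dots), the Ephb2-KO pair (triangles) and the joint fit (diamonds), with the number tested and called beside each name and the median of all tested genes dotted. ERK targets (1.21) lie at one end and histone genes (-1.51) at the other, and the joint medians of the differentiating, pluripotency, DNA replication, cyclin, p53, fibroblast, myoid, stress response, TGF-beta and DNA methylation lists turn negative under library totals.

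Among the smaller signalling lists, 6 of 24 TGF-beta and BMP target genes rose and 1 fell, with a median of 0.08 that turned to -0.09 under library totals. Ctgf was at 19 and 22 CPM in replicate 1 and at 76.4 and 94.7 in replicate 2, while Id3 fell from 47.4 and 47.3 to 19.12 and 25.4. Of 33 Wnt pathway genes, 4 rose (Fzd1, Fzd7, Wnt5a and Wnt7b) and 2 fell (Notum and Fzd10). Imprinted genes went both ways, 5 of 32 higher and 5 lower, against 4.78% and 4.46% of all tested genes. Igf2, a growth factor expressed from the paternal allele, was at 6.05 and 8.62 CPM against 20.2 and 19.06. The maternally expressed RNAs Meg3 and Rian, which lie in the same cluster, fell from 2.98 and 1.21 CPM to 0.312 and 0.359 and from 4.39 and 4.41 to 1.01 and 1.21. Of 14 DNA methylation enzyme genes, 0 were called by edgeR, with a median of 0.09 that turned to -0.08 under library totals. At an unadjusted p of 0.05, 1 of the 14 was higher and 1 lower (against 25.3% of all tested genes), and DESeq2 and limma-voom called 0.

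By chromosome, chromosome 6 differed between the pairs. In the wild-type pair the median of its 776 tested genes was -0.24 and 65.6% of them were lower in WT_2 than in WT_1, while in the Ephb2-KO pair the median was 0.02 and 47.7% were lower. With only the 527 genes at a mean of 5 CPM or more, the medians were -0.18 and 0.02. All 10 successive bins of 15 Mb along the chromosome had a median below 0 in the wild-type pair, and 4 of 10 did in the Ephb2-KO pair. Against the median of the other 5 libraries, those genes stood at 0.19 on the log2 scale in WT_1. Without WT_1 the fitted median of chromosome 6 turned from -0.10 to 0.04. No other autosome's median was farther from 0 than -0.14 in either pair. The difference between the pairs has no replicate and was not tested. Leaving chromosome 6 out of the fit gave 1413 called genes.

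**Figure D5:**
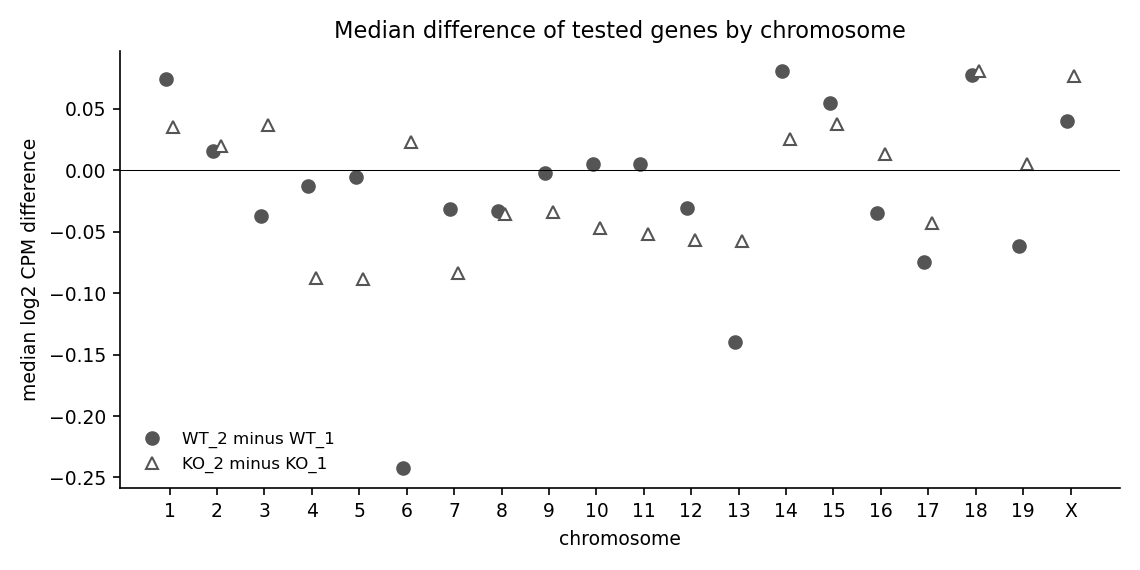
Median log2 CPM difference between replicate 2 and replicate 1 over the tested genes of each autosome and of chromosome X, in the wild-type pair (dots) and in the Ephb2-KO pair (triangles). Chromosome 6 in the wild-type pair, at -0.24, lies lowest.

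The passage 18 libraries did not lie at one end of this difference. Of the 752 genes higher in replicate 2, the mean of WT_3 and KO_3 lay between the means of replicates 1 and 2 for 287, beyond replicate 2 for 236 and beyond replicate 1 for 229. Of the 702 lower genes, it lay between for 439, beyond replicate 2 for 71 and beyond replicate 1 for 192. It lay nearer to replicate 2 for 350 of the higher and 271 of the lower genes. The named genes showed both kinds: Etv5, Dusp5, Epha2 and Efna1 in replicate 3 lay with replicate 1, and Sycp1, Sycp3, Hormad1 and Gtsf1 lay with replicate 2. Passage differs between these libraries and the rest, so passage and line cannot be told apart.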

How the data were processed

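The deposited files hold raw read counts per gene, 1 file a library. Per the file headers, the authors used featureCounts 1.4.6-p4 with strand setting 2 on GENCODE vM3 exons grouped by gene name and set no option for pairs, multiple mapping or overlap, so near-identical copies are undercounted. The build (GRCm38.p3), STAR and FastQC are named in the submitters' processing notes. Library kits keep strand, per the labels' protocols. 0 columns belonged to other series.

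Counts of the 4 passage 20 libraries were fitted in R 4.3.3 with edgeR 4.0.16: filterByExpr, TMM scaling, group and replicate number as terms (1 residual degree of freedom), robust glmQLFit, glmQLFTest and Benjamini-Hochberg adjustment over 15728 genes at 0.05. A standard error is the log2 fold change over the square root of F. CPM values use TMM scaling of all 6 libraries, and differences within a pair a prior count of 2. The common biological coefficient of variation was 0.201. Alternatives used DESeq2 1.42.0, limma-voom (limma 3.58.1), other scalings, filters, GC offsets (GC known for 95.1% of tested genes), thinning and left-out libraries. The script was tested on simulated data, where it recovered 55% of 2-fold and 89% of 4-fold changes, and 4.64% of its calls were false. A gene that was not called is therefore not shown to be unchanged. Figures used matplotlib 3.10.9.

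All pairs of libraries differed beyond sampling noise (chi-square over its degrees of freedom 20.5 to 284). Deviations from the group means correlated at 0.606, 0.718 and 0.830 between libraries numbered 1, 2 and 3. Libraries of the same number may therefore not be independent, and a batch and a culture state that they share cannot be told apart. Named genes were up to 15 per direction with the largest change past the threshold, separate ranges and at least 5 CPM, up to 4 called members of each of 41 lists (or, with none called, up to 2 by p) and fixed germline and cell cycle genes. Further called members, the near-silent genes, those of single libraries and other genes were chosen after their values were seen. The comparison and lists were chosen with earlier results of these data known.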

Additional observations from a re-analysis of the deposited data

Results flagged for a closer look

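Some differences between replicate 2 and replicate 1 went opposite ways in the wild-type and the Ephb2-KO pair. Each pair has 1 library a side, so the difference between the pairs was not tested. Values are log2 CPM, with the wild-type difference minus the Ephb2-KO difference given last. Ephb2 was at 0.35 and -1.17, a gap of 1.52. Cdkn1b was at -1.31 and 0.43, a gap of -1.74. Dppa4, a pluripotency gene, was at -1.36 and 0.68, a gap of -2.04, with 19.4 CPM in WT_1 and 2.36 in KO_1. Kit was at 0.90 and -0.27, a gap of 1.16. Pnldc1 was at -1.84 and 4.44, a gap of -6.28. Of the list medians, Eph receptors and ephrins gave 0.24 and -0.19 (gap 0.43), peritubular myoid markers 0.50 and -0.07 (gap 0.57), nuclear oxidative phosphorylation genes -0.01 and 0.45 (gap -0.46) and Notch pathway genes 0.03 and -0.49 (gap 0.52). Chromosome 6 gave -0.24 and 0.02 (gap -0.27).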

How the results depend on the processing

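No paired analysis was possible with the replicate number as the block, because the replicate number is itself the contrast. The main fit held group as a term, so its comparison was made within the groups. With 1454 genes called, other settings gave 1432 (DESeq2 size factors), 1878 (library totals), 1304 (DESeq2), 1627 (limma-voom), 1279 (at least 5 CPM in 2 libraries), 1235 (no group covariate), 1455 (no robust estimation), 2056 (thinned to the smallest total) and 1598 (GC offsets), and, added after seeing the data, 1415 without histone and mitochondrial genes and 1413 without chromosome 6. The count was over 1.5 times larger with no filter beyond 1 count (2232) and with all 6 libraries (2501). Leaving out 1 library at a time from the 6-library fit gave 1548 to 3610, the highest without WT_1 (3610) and KO_1 (3429); where an arm then has 1 library, its spread is assumed to be that of the rest. Between 70.2% and 100% of the called genes were shared in the same direction under each setting, lowest without WT_2 or KO_2. The correlation between the pairs was 0.625 with at least 5 CPM in 2 libraries. The cause of each of these shifts was not tested.

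Genes that were not called changed sign in places. Dazl was -0.0445 under library totals. Leaving out 1 library at a time, Dazl ranged from -0.0946 (without WT_1) to 0.35, Bcl6b from -0.0021 (without WT_1) to 0.97, Ephb2 from -1.05 to 0.23 (without KO_2; 0.13 without KO_1), Cdkn1b from -1.23 to 0.35 (without WT_1; 0.04 without WT_2), Dppa4 from -1.30 to 0.62 (without WT_1; 0.18 without WT_2), Kit from -0.161 (without WT_1; -0.0853 without WT_2) to 0.81 and Pnldc1 from -2.1 (without KO_1; -1.04 without KO_2) to 5.38. Pnldc1, at 0.52, also turned to -0.85 (limma-voom), -1.32 (no covariate) and -0.49 (all 6 libraries). Among called genes, with no group covariate, Crabp2 (edgeR adjusted p = 0.12), Sycp2 (0.086), Mki67 (0.057), Naa11 (0.055), Itga6 (0.052) and Mycn (0.051) did not pass, Mycn also with DESeq2 size factors (0.052), and Sycp2 (0.060) and Stk31 (0.078) did not with GC offsets. With 2 libraries a side and 1 residual degree of freedom, genes of a few counts rest on their counting intervals.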
